A study of Homo sapiens with 12 samples.

Results

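The apolipoprotein L family was examined in HT1376, a human bladder cancer cell line with epithelial features. Its members were taken by gene symbol (APOL1, APOL2, APOL3, APOL4, APOL5 and APOL6), and all 6 were present among the 60666 genes of the count table. The series asked how FOXP3 bears on the IFNγ response, including PD-L1. HT1376 CT is a single-cell clone made by CRISPR with a control guide RNA against luciferase, named WT in the sample labels. HT1376 FOXP3 KO is a single-cell clone in which exon 2 of FOXP3, a forkhead transcription factor, was targeted with CRISPR. Both clones were left untreated or cultured with IFNγ at 100 ng/mL over 48 hours. That makes 4 groups, each of 3 libraries, numbered 11, 12 and 13. Since each genotype is 1 clone, loss of FOXP3 and other differences between the clones cannot be told apart. No source used here says that the 3 libraries of a group came from separate cultures, so p-values measure the spread between these samples, which may be technical.

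APOL proteins share an amphipathic, membrane-active fold, and most members stay inside the cell. APOL1 is the secreted exception: it circulates on HDL particles and lyses trypanosomes by forming ion channels. IFNγ binds its receptor, activates JAK1 and JAK2, and the APOL genes of human cells are among the known targets of this pathway. APOL3 is known as an IFNγ-induced effector that permeabilizes bacteria in the cytosol of epithelial cells.

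The 6 genes lie on chromosome 22 within 619.1 kb of GRCh38 (positions from GENCODE 44). APOL6 (ENSG00000221963) spans 35648446 to 35668404 on the plus strand. APOL5 (ENSG00000128313) spans 35717872 to 35729483 on the plus strand. The other 4 members form a tight group 410845 bases from APOL5, beyond RBFOX2. APOL3 (ENSG00000128284) spans 36140329 to 36166177 on the minus strand. APOL4 (ENSG00000100336) spans 36189124 to 36204840 on the minus strand. APOL2 (ENSG00000128335) spans 36226209 to 36239954 on the minus strand. APOL1 (ENSG00000100342) spans 36253071 to 36267530 on the plus strand. The gaps within this group are 22946, 21368 and 13116 bases, and no other annotated gene overlaps a member. The members have related sequences, and how the counting treated reads that match several genes is not given in the sources used here, so reads may be split between close members, APOL1 to APOL4 in particular.

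The libraries held 4490684 to 39270042 counts, with the fewest in replicate 12 of HT1376 CT with IFNγ. No library held more than 3 FOXP3 counts, and 8 of 12 held 0, so the targeted gene could not check the labels. Of the epithelial markers 9 of 9, and of the urothelial markers 6 of 7, passed 3 counts in some library. Of the 9 epithelial markers, EPCAM, CDH1 and KRT13 were called lower and KRT7 higher in HT1376 FOXP3 KO in both conditions. Of 5 urothelial markers tested, 2 were called higher and 2 lower there without IFNγ, and 1 higher and 0 lower with it. Over all genes 14% were called higher and 18.2% lower without IFNγ, and 15.7% lower with it. Summed leukocyte markers reached at most 3.18 CPM and summed endothelial markers at most 1.83 CPM. The 5 fibroblast markers, each with counts in every group, summed to 24.5 to 63.2 CPM in the HT1376 CT libraries and to 442 to 703 CPM in the HT1376 FOXP3 KO libraries. Of these, 4 were called higher in HT1376 FOXP3 KO in both conditions, with COL1A2 the most abundant there (361 CPM without IFNγ), and COL1A1 was called lower (log2 -1.87 and -1.37). Their part in the differences between the lines was not tested. The 4 libraries numbered 12 stood apart from the others on the third principal component (5.19% of the variance).

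Of the 6 members, 5 rose with IFNγ in HT1376 CT, by 2.28 to 7.57 on the log2 scale, and the same 5 rose in HT1376 FOXP3 KO, by 1.54 to 4.52. APOL5 was near 0 throughout. Under IFNγ, APOL1, APOL2, APOL3 and APOL6 were lower in HT1376 FOXP3 KO than in HT1376 CT, by 0.60 to 1.02 on the log2 scale. Without IFNγ, APOL1 and APOL4 were called higher in HT1376 FOXP3 KO, where 32.1% of all genes were called in either direction. The call was lost in 3 of 6 fits with 1 library left out for APOL1, and in 2 of 6 for APOL4. Levels below are normalized CPM, that is, counts scaled by the TMM-adjusted library size to a common total.

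**Figure D1:**
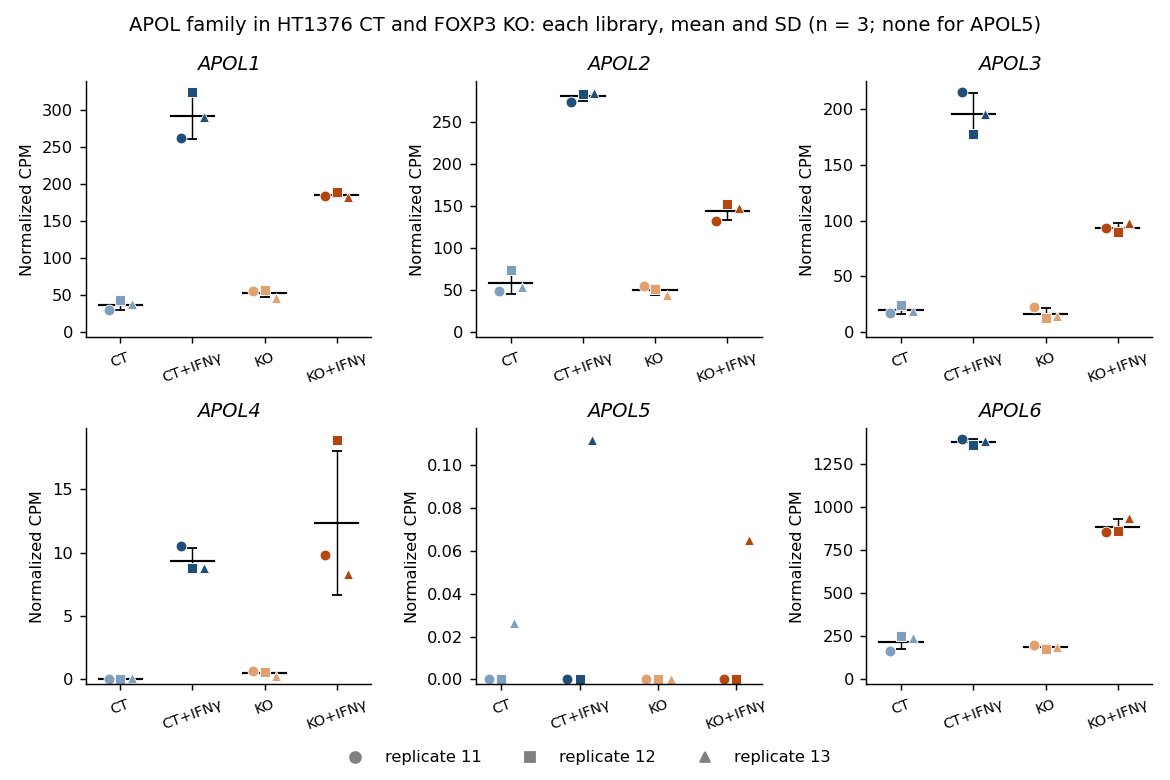
Normalized CPM of each APOL gene (linear axes, 1 scale per gene) in the 12 libraries, by group, with symbols for the replicate number, bars for the mean and whiskers for the SD (n = 3; none for APOL5, which had at most 2 counts). For 5 genes both IFNγ groups lie above both untreated groups, and APOL1, APOL2, APOL3 and APOL6 lie lower in KO with IFNγ than in CT with IFNγ.

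In HT1376 CT, APOL1 was at 30.6, 43.2 and 37.6 CPM in the untreated libraries 11, 12 and 13. With IFNγ the same-numbered libraries held 262, 325 and 291 CPM. All 3 IFNγ libraries lay far above the untreated ones, at 7.51 to 8.56 times the untreated library of the same number. The quasi-likelihood test of edgeR gave a log2 fold change of 3.0 (SE 0.15, n = 3 per group, adjusted p = 1.89e-07).

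APOL2, an intracellular member found at the endoplasmic reticulum, was the member with the smallest log2 response of the 5 in HT1376 CT. Untreated libraries held 49.1, 73.7 and 54.3 CPM, with library 12 the highest. IFNγ libraries held 274, 284 and 285 CPM. The groups did not overlap, and the IFNγ libraries were close to one another. Its log2 fold change was 2.28 (SE 0.15, edgeR adjusted p = 2.03e-06).

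APOL3, the cytosolic antibacterial member, was at 17.3, 24.6 and 19.2 CPM without IFNγ. It was at 215, 177 and 195 CPM with IFNγ. The groups were well apart, and library 12 was the highest untreated and the lowest treated one. The rise was 3.30 on the log2 scale (SE 0.15, edgeR adjusted p = 8.88e-08).

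APOL6, which carries a BH3-like motif and has been studied in cell death, had the most counts of the family. It was at 167, 251 and 238 CPM in untreated HT1376 CT. With IFNγ it was at 1393, 1357 and 1378 CPM, a narrow range well above the untreated libraries. The log2 fold change was 2.68 (SE 0.14, edgeR adjusted p = 3.59e-07).

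APOL4, whose role is little known, was nearly silent in untreated HT1376 CT, with 0, 0 and 3 counts. IFNγ brought it to 109, 38 and 158 counts, or 10.6, 8.77 and 8.83 CPM. The totals of 305 and 3 counts give a ratio of 211 with a 95% exact interval of 71.4 to 1027.5 for counting error only. The fitted log2 fold change was 7.57 (SE 0.52, edgeR adjusted p = 3.07e-06), a size that rests on few counts because the untreated group was at the floor. It was 9.89 without HT1376 CT 13, which holds the 3 counts. APOL5 had 0, 0 and 1 counts without IFNγ and 0, 0 and 2 with it. It did not reach the 10 counts needed for a test, and no fold is given. A count of 3, taken as the floor, would correspond to 0.0793 to 0.692 CPM in the HT1376 CT libraries. APOL5 stayed below 3 counts in each of them, so its level was not resolved at this depth.

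These 5 members were all of those tested, where 3.53% of the 24416 genes tested were called higher and the median log2 fold change of all genes was -0.02. The family median was 3.0. In order of log2 fold change, counted from the largest rise, APOL4 was at place 34, APOL3 at 317, APOL1 at 393, APOL6 at 505 and APOL2 at 697. The 5 members stayed past the threshold under each alternative and with each library left out, whereas the count over all genes rose from 1307 to 4530 with the replicate number as a block.

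In HT1376 FOXP3 KO, the same 5 members rose. There 0.978% of the 24131 genes tested were called higher, and the median over all genes was -0.01 against 2.25 for the family. With the replicate number as a block, 1334 genes were called in either direction in place of 237, and the 5 members remained called.

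APOL1 in HT1376 FOXP3 KO was at 55.6, 57.4 and 47.0 CPM without IFNγ. It was at 184, 189 and 183 CPM with IFNγ. The treated libraries agreed closely and lay above all untreated ones, with ratios of 3.30 to 3.89 between same-numbered libraries. The log2 fold change was 1.81 (SE 0.12, edgeR adjusted p = 3.93e-05).

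APOL2 was at 55.1, 51.6 and 44.5 CPM without IFNγ in this line. It was at 133, 153 and 148 CPM with IFNγ. The groups did not overlap, and the log2 fold change of 1.54 (SE 0.12, edgeR adjusted p = 0.000148) was again the smallest of the 5.

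APOL3 was at 22.2, 12.8 and 14.6 CPM without IFNγ, with library 11 the highest. It was at 93.9, 89.4 and 97.9 CPM with IFNγ. The treated libraries lay in a narrow range above the untreated ones, and the log2 fold change was 2.51 (SE 0.19, edgeR adjusted p = 9.51e-05).

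APOL6 was at 199.8, 175 and 188 CPM without IFNγ and at 852, 859 and 935 CPM with it. The groups were far apart. The log2 fold change was 2.25 (SE 0.09, edgeR adjusted p = 1.71e-06), the lowest adjusted p of the 5 members in this line.

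APOL4 was detected in each untreated HT1376 FOXP3 KO library, with 16, 7 and 5 counts. IFNγ libraries held 147, 177 and 256 counts, or 9.83, 18.9 and 8.35 CPM. Library 12 was about as far above the other treated libraries as they were above the untreated ones, and the groups did not overlap. The totals of 580 and 28 counts give a ratio of 19.6 (95% exact interval 13.4 to 29.7, counting error only), and the log2 fold change was 4.52 (SE 0.45, edgeR adjusted p = 0.000719). APOL5 had 0 counts in each untreated library and 0, 0 and 2 with IFNγ.

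**Figure D2:**
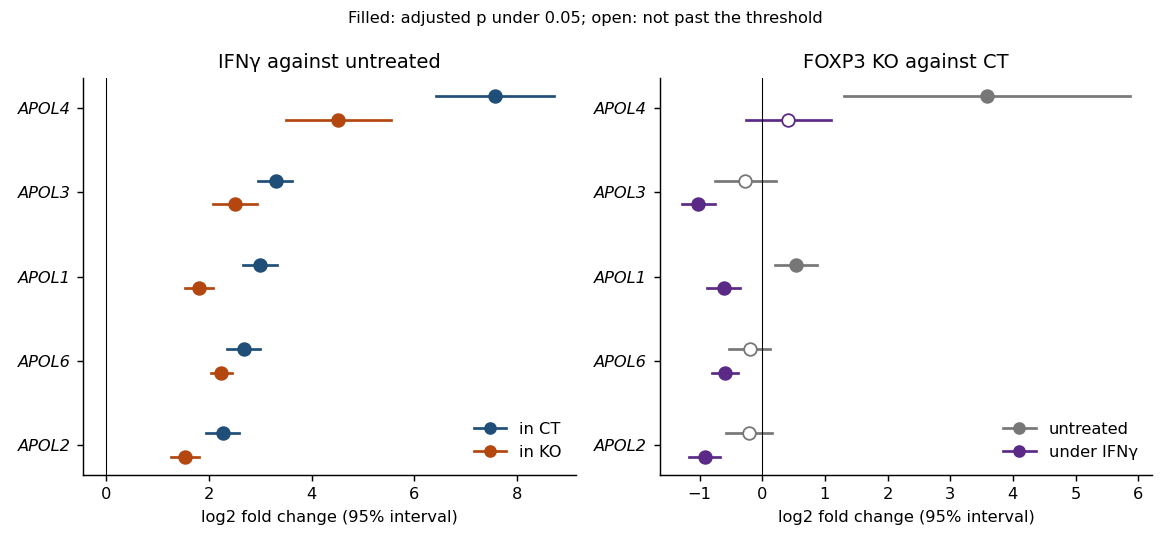
Log2 fold changes (points, edgeR) with 95% intervals (lines) of the 5 tested APOL genes, for IFNγ against untreated in each line (left) and for FOXP3 KO against CT in each condition (right). Filled points have an adjusted p under 0.05. On the left, every point is filled and each KO point lies left of its CT point, from -0.43 for APOL6 to -3.06 for APOL4 in the test of the difference.

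An interaction term over the 12 libraries tested whether the IFNγ response differed by line. The response of APOL1 was smaller in HT1376 FOXP3 KO, by 1.19 on the log2 scale (SE 0.19, 95% interval -1.59 to -0.79, edgeR adjusted p = 0.0171). In this fit, which had no replicate block, APOL1 was the 1 member called, where 0.108% of the 27806 genes tested were called lower. The log2 ratio between same-numbered libraries was 3.10, 2.91 and 2.95 in HT1376 CT and 1.73, 1.72 and 1.96 in HT1376 FOXP3 KO, so the lines did not overlap. The call was kept without HT1376 CT 12, HT1376 CT with IFNγ 11 or HT1376 FOXP3 KO 13, and it was lost without any 1 of the other 9 libraries (log2 -1.25 to -1.02 and adjusted p 0.0202 to 0.11 over the 12 fits).

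The other 4 members had the same sign without passing the threshold. The difference was -0.74 for APOL2 (95% interval -1.16 to -0.32, edgeR adjusted p = 0.344). It was -0.79 for APOL3 (95% interval -1.33 to -0.26, edgeR adjusted p = 0.558). For APOL6 it was -0.43 (95% interval -0.82 to -0.04, edgeR adjusted p = 0.755). Before adjustment over all genes these intervals leave out 0. At an unadjusted p under 0.05, 6.21% of all genes tested passed, and 5 of the 5 tested members. For APOL4 the difference was -3.06 (95% interval -4.84 to -1.29, edgeR adjusted p = 0.368), and it rests on the 3 counts of untreated HT1376 CT 13, without which it was -5.62 (adjusted p = 0.425).

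With the replicate number as a block, APOL2 (log2 -0.76, edgeR adjusted p = 0.00685), APOL3 (-0.78, adjusted p = 0.0459) and APOL4 (-3.06, adjusted p = 0.048) were called as well, and 336 genes in all were called in place of 31. Over the 9 alternatives that kept the libraries, adjusted p ranged from 0.000622 to 0.344 for APOL2, from 0.00725 to 0.558 for APOL3, from 0.00919 to 0.619 for APOL4 and from 0.0232 to 0.755 for APOL6. The family median of the difference was -0.79 beside 0.03 over all genes.

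Between the lines without IFNγ, 2 of the 5 tested members were called, both higher in HT1376 FOXP3 KO, where 14% of the 25320 genes tested were called higher and 32.1% in either direction. The share called among members is thus near that of all genes. APOL1 was 0.54 higher on the log2 scale (SE 0.15, edgeR adjusted p = 0.018). Its 3 HT1376 FOXP3 KO libraries lay above the 3 HT1376 CT libraries, the nearest at 47.0 against 43.2 CPM. Without HT1376 CT 11 the adjusted p was 0.053, without HT1376 CT 13 it was 0.0504 and without HT1376 FOXP3 KO 11 it was 0.0525, and over the 6 fits it ranged from 0.00882 to 0.053.

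APOL4 had 28 counts in untreated HT1376 FOXP3 KO against 3 in untreated HT1376 CT. The ratio of normalized totals was 12.1 (95% exact interval 3.75 to 62.4, counting error only). The fitted log2 difference was 3.59 (SE 1.04, edgeR adjusted p = 0.022), and 6.16 without HT1376 CT 13, which holds the 3 counts. The groups did not overlap, at 0.288 to 0.685 CPM against at most 0.0793 CPM. The call was lost without HT1376 CT 11 (adjusted p = 0.0549), without HT1376 FOXP3 KO 11 (0.0818) and without the libraries numbered 12 (0.0685), and adjusted p ranged from 0.0246 to 0.0818 when any 1 library was dropped.

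APOL2, APOL3 and APOL6 overlapped between the untreated lines. Their log2 differences were -0.21 (95% interval -0.57 to 0.15), -0.27 (-0.75 to 0.22) and -0.20 (-0.53 to 0.12), with edgeR adjusted p-values of 0.364, 0.391 and 0.33. Library 11 differed in direction from libraries 12 and 13. APOL3 of HT1376 FOXP3 KO was at 1.29 times HT1376 CT in libraries numbered 11, at 0.522 times in 12 and at 0.759 times in 13. APOL2 showed the same split, at 1.12, 0.699 and 0.819 times, and so did APOL6, at 1.195, 0.697 and 0.790 times.

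Under IFNγ, 4 of the 5 tested members were lower in HT1376 FOXP3 KO, where 15.7% of the 24388 genes tested were called lower and 28.9% in either direction. The family median was -0.61 against 0.02 for all genes. These values share the IFNγ-treated libraries with the responses above. In bulk RNA, fewer cells with a transcript and less RNA per cell cannot be told apart.

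APOL3 differed the most of the 4, at -1.02 on the log2 scale (SE 0.12, edgeR adjusted p = 6.56e-05). Its HT1376 FOXP3 KO libraries were at 0.437, 0.504 and 0.501 times the same-numbered HT1376 CT libraries. APOL2 followed at -0.91 (SE 0.11, edgeR adjusted p = 0.000106), with ratios of 0.485, 0.538 and 0.521. The ratios of these members were near one another in the 3 numbers, and no HT1376 FOXP3 KO library reached the lowest HT1376 CT library.

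APOL1 was lower by a log2 difference of -0.61 (SE 0.12, edgeR adjusted p = 0.00285), the opposite sign of its difference without IFNγ. APOL6 was lower by a similar amount, -0.60 (SE 0.09, edgeR adjusted p = 0.000599). For both genes the highest HT1376 FOXP3 KO library, at 189 and 935 CPM, lay below the lowest HT1376 CT library, at 262 and 1357 CPM. None of the 4 calls was lost when 1 library was left out.

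APOL4 was not called under IFNγ, at 0.42 on the log2 scale (95% interval -0.26 to 1.10, edgeR adjusted p = 0.353). The groups overlapped. Its same-numbered ratios were 0.931, 2.15 and 0.946, so that the mean of HT1376 FOXP3 KO, 12.4 ± 5.71 CPM (SD, n = 3) against 9.38 ± 1.01 CPM, rested on library 12. Without the libraries numbered 12 the log2 difference was -0.05 (adjusted p = 0.904).

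To compare genes with one another, levels were divided by the merged exon length of each gene. APOL6 was the highest member in each group by mean CPM per kb, at 21.7 ± 4.5 in untreated HT1376 CT, 137 ± 1.77 with IFNγ, 18.6 ± 1.23 in untreated HT1376 FOXP3 KO and 87.7 ± 4.57 with IFNγ (SD, n = 3). APOL2 came second in untreated HT1376 CT, at 17.3 ± 3.79 CPM per kb, and its range overlapped that of APOL6. APOL1 followed at 10.7 ± 1.83 CPM per kb and APOL3 at 3.45 ± 0.646 CPM per kb. APOL4 and APOL5 were at or below the level of 3 counts.

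With IFNγ, APOL1 and APOL2 did not differ beyond their spread in HT1376 CT, at 84.5 ± 9.10 and 82.2 ± 1.77 CPM per kb. APOL3 was at 33.2 ± 3.17 CPM per kb and APOL4 at 2.12 ± 0.229 CPM per kb. In untreated HT1376 FOXP3 KO, APOL1 and APOL2 again overlapped, at 15.4 ± 1.61 and 14.7 ± 1.57 CPM per kb. With IFNγ they no longer did, at 53.6 ± 0.996 and 42.4 ± 3.07 CPM per kb, with APOL3 at 15.9 ± 0.717 and APOL4 at 2.80 ± 1.29. Dividing by the longest transcript instead put APOL2 (21.99 CPM per kb) before APOL6 (21.7) in untreated HT1376 CT, and APOL2 (18.8) before APOL6 (18.6) and APOL1 (17.8) in untreated HT1376 FOXP3 KO. It also put APOL2 (105) before APOL1 (97.4) in HT1376 CT with IFNγ, and left the order of HT1376 FOXP3 KO with IFNγ as it was.

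**Figure D3:**
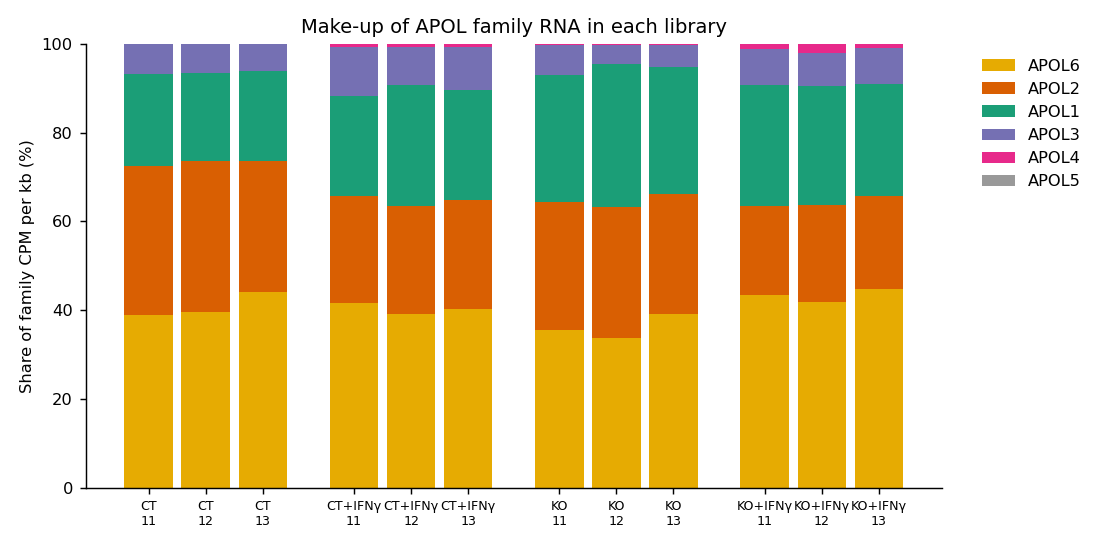
Share of each APOL gene in the summed CPM per kb of the family, in percent, as a stacked bar for each of the 12 libraries. APOL6 takes 33.8% to 44.7% of each bar, the APOL2 part is smaller in the IFNγ bars of each line, and APOL4 is seen as a thin band with IFNγ.

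Summed over the 6 members, family RNA came to 53.2 ± 10.3 CPM per kb in untreated HT1376 CT and 51.7 ± 4.07 in untreated HT1376 FOXP3 KO (SD, n = 3). With IFNγ it came to 339 ± 5.50 in HT1376 CT and 202 ± 6.57 in HT1376 FOXP3 KO. The untreated ranges overlapped and the treated ranges did not, at 333 to 344 against 195 to 208 CPM per kb.

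As a part of that sum, the share of APOL2 was 29.6% to 34.1% in untreated HT1376 CT libraries and 24.1% to 24.5% with IFNγ. In HT1376 FOXP3 KO it was 27.2% to 29.3% without and 19.96% to 21.9% with IFNγ, so APOL2 took a smaller share in the treated libraries of both lines. The share of APOL1 was 19.8% to 20.7% in untreated HT1376 CT and 28.4% to 32.3% in untreated HT1376 FOXP3 KO, ranges that did not overlap. With IFNγ the APOL1 shares overlapped between the lines, at 24.9% ± 2.29 and 26.5% ± 0.968 (SD, n = 3).

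**Figure D4:**
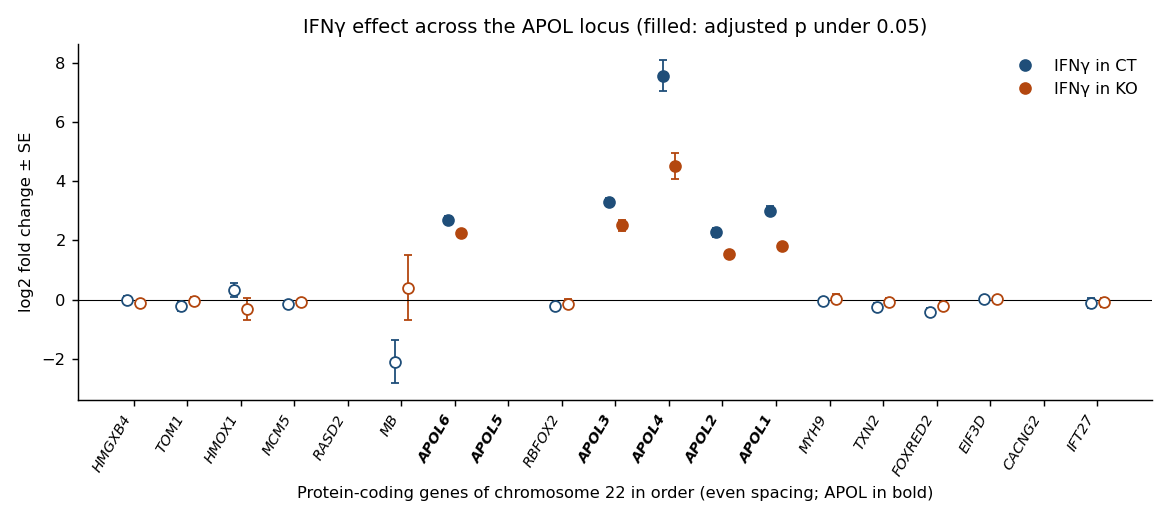
Log2 fold change with IFNγ ± SE (edgeR) in CT and KO for the protein-coding genes of chromosome 22 around the APOL genes, in genome order with even spacing. Filled points have an adjusted p under 0.05, and genes without a point were not tested. The filled points are those of APOL6, APOL3, APOL4, APOL2 and APOL1, and the neighbours are open.

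The IFNγ response was set beside that of the other protein-coding genes from 500 kb before to 500 kb after the family. Of the 13, 11 were tested in each line, with medians of -0.16 in HT1376 CT and -0.07 in HT1376 FOXP3 KO. In either line 0 were called by edgeR and 0 by DESeq2, and an unadjusted edgeR p under 0.05 was reached by 2 in HT1376 CT and 0 in HT1376 FOXP3 KO. Over all genes tested, 3.53% and 0.978% were called higher, so 0 of 11 is near the share of all genes. RBFOX2, a splicing factor gene that lies between APOL5 and APOL3, was at -0.21 and -0.13. MYH9, which encodes the heavy chain of nonmuscle myosin IIA and lies next to APOL1, was at -0.04 and 0.04. Between the untreated lines, 7 of 11 neighbours were lower in HT1376 FOXP3 KO, where 18.2% of all genes were called lower. These were HMOX1 (-1.57), MB (-3.55), EIF3D (-0.68), HMGXB4 (-0.60), RBFOX2 (-0.50), MYH9 (-0.46) and FOXRED2 (-0.32). Under IFNγ, 4 of 11 were lower, where 15.7% of all genes were. The 7 and 4 are edgeR calls. Between the lines DESeq2 called 6 neighbours without and 3 with IFNγ, and 8 and 5 had an unadjusted edgeR p under 0.05.

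**Figure D5:**
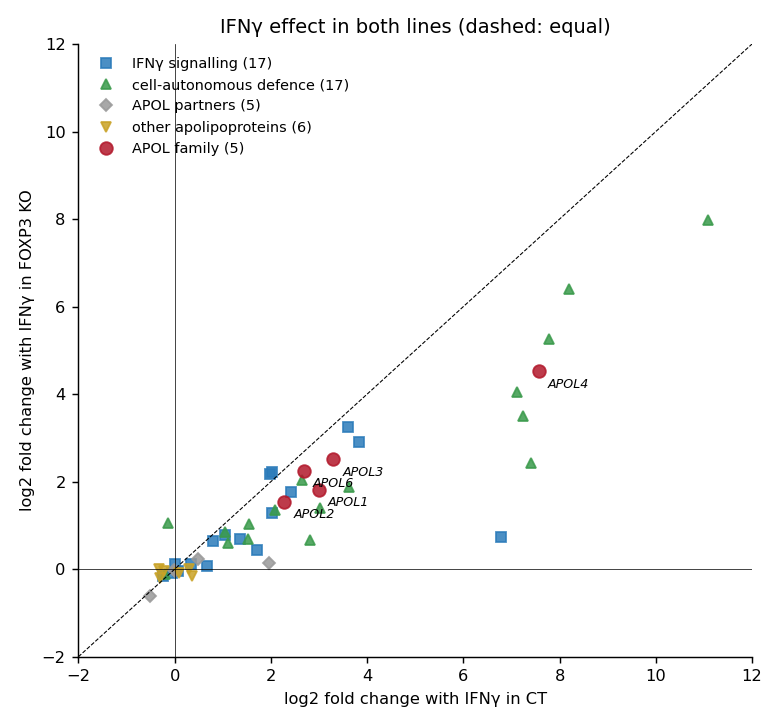
Log2 fold change with IFNγ in CT (horizontal) against KO (vertical) for the genes tested in both lines, by gene list, with the number of genes in brackets and a dashed line where both are equal. The 5 APOL genes lie below the line, as do GBP genes of the cell-autonomous defence list, while other apolipoproteins lie near 0 on both axes.

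Genes of the IFNγ signalling pathway were followed in the same fits. Of 17 receptor, kinase, transcription factor and feedback genes, 11 rose in HT1376 CT (median 1.36) and 6 in HT1376 FOXP3 KO (median 0.68). Over all genes tested, 3.53% and 0.978% were called higher. DESeq2 called 12 and 9 list genes, and 13 and 9 had an unadjusted edgeR p under 0.05. IRF1, a transcription factor of the pathway, rose by 3.83 and 2.91 on the log2 scale. It was the 1 list gene that edgeR called in the interaction (-0.93, adjusted p = 0.0171), where 0.108% of all genes were called lower. For the interaction DESeq2 called 2 list genes, and 6 had an unadjusted edgeR p under 0.05 (6.21% of all genes). HT1376 FOXP3 KO had 3 of the 16 genes tested higher and 8 lower without IFNγ, and 1 of 17 higher and 8 lower with it. Over all genes 14% were called higher and 18.2% lower without IFNγ, and 15.7% lower and 28.9% in either direction with it. IFNGR2, a receptor chain, was lower in HT1376 FOXP3 KO by -1.22 without and -1.28 with IFNγ, and the kinase gene JAK2 by -1.06 and -1.70. Its partner kinase gene JAK1 was higher, by 0.54 and 0.56.

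Genes of cell-autonomous defence, the class in which APOL3 is placed, rose in 15 of 18 cases in HT1376 CT (median 2.92) and in 13 of 17 in HT1376 FOXP3 KO (median 1.41). Over all genes tested, 3.53% and 0.978% were called higher in these lines. DESeq2 called 16 and 14 list genes. GBP1, a guanylate-binding protein that coats bacteria, rose by 7.12 and 4.05. CASP4, which senses bacterial lipopolysaccharide, rose by 1.54 and 1.04. In the interaction edgeR called 6 of 18 and DESeq2 called 8, and 13 had an unadjusted edgeR p under 0.05. Over all genes, edgeR called 0.108% lower. Each of the 6 had the smaller response in HT1376 FOXP3 KO. They were GBP1 (-3.08), GBP2 (-4.98), GBP5 (-3.13), RNF213 (-2.15), SP110 (-1.61) and TRIM22 (-3.73). Of these, GBP1, GBP2, TRIM22 and SP110 were already higher in untreated HT1376 FOXP3 KO, by 2.94, 6.35, 3.54 and 0.97, where 5 of 17 list genes were higher and 3 lower (14% and 18.2% over all genes). GBP1 and TRIM22 were not called between the lines under IFNγ, at -0.10 and -0.07. Under IFNγ, 9 of 18 were lower in HT1376 FOXP3 KO (15.7% over all genes) and 1, GBP2, was higher by 1.41.

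Proteins known to act with APOL1 or APOL3, or in the vesicle traffic they take part in, were followed too. Of 6 tested in HT1376 CT, where 3.53% of all genes were called higher, edgeR called 1: VAMP8, a vesicle fusion protein, rose by 0.48 (adjusted p = 0.0284). There DESeq2 called 2, and 3 had an unadjusted edgeR p under 0.05. In HT1376 FOXP3 KO 0 of 5 were called by edgeR and 0 by DESeq2, and 1 had an unadjusted p under 0.05. Over all genes 0.978% were called higher in this line. NCS1, a calcium sensor of Golgi traffic, was lower in HT1376 FOXP3 KO in both conditions, at 2.31 ± 0.834 against 18.4 ± 0.874 CPM without IFNγ (log2 -3.02, edgeR adjusted p = 8.6e-06). ARF1, a GTPase of the Golgi, was lower as well, by -0.57 and -0.60. These were 2 of 5 tested without IFNγ, and with STING1 3 of 5 with it, where 18.2% and 15.7% of all genes were called lower. STING1, a DNA-sensing adaptor that travels through the Golgi, was lower under IFNγ (log2 -3.12, edgeR adjusted p = 0.0133) at 0 to 29 counts per library.

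Genes named for other apolipoproteins, with APOLD1 among them, gave no call with IFNγ. Of 18 genes, 8 were tested in HT1376 CT and 7 in HT1376 FOXP3 KO, with medians of -0.17 and -0.05. In either line 0 were called by edgeR, 0 by DESeq2, and 0 had an unadjusted edgeR p under 0.05. With 3.53% and 0.978% of all genes called higher, 0 calls in so short a list is near the share of all genes. Between the lines edgeR called 3 of 9 higher in HT1376 FOXP3 KO without IFNγ (APOB, APOOL and CLU) and 1 lower (APOC1, at 3 to 7 counts per library in HT1376 CT and 0 in HT1376 FOXP3 KO), a share near the 32.1% of all genes called in either direction. With IFNγ it called the same 3 of 8 higher and 0 lower, where 28.9% of all genes were called in either direction, with 4 of 8 at an unadjusted p under 0.05 and 3 called by DESeq2. APOB had 0 counts in each HT1376 CT library, and APOOL was higher by 0.56 and 0.77. CLU, a secreted chaperone also named apolipoprotein J, was higher in HT1376 FOXP3 KO by 1.35 without and 1.70 with IFNγ, whereas APOL2, APOL3 and APOL6 were lower under IFNγ and not called without it. APOLD1, the APOL domain gene outside the cluster, was at 20.2 ± 3.08 CPM in untreated HT1376 CT and 24.9 ± 10.5 CPM with IFNγ (SD, n = 3), and was not called in any comparison.

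The levels of the members over the 12 libraries resembled those of other IFNγ-regulated genes, given here as Pearson's r of log2 CPM among 15677 genes with a mean of at least 1 CPM. The 12 points are 4 groups of 3 libraries, and the IFNγ difference is shared by all of these genes, so r is a description. APOL1 was most like HLA-C (0.995), GBP5 (0.991) and STAT2 (0.991). APOL2 was like BTN3A2 (0.994) and IDO1 (0.991). APOL3 was most like IRF1 (0.995), BTN3A2 (0.994) and IDO1 (0.994).

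APOL6 was most like IDO1 (0.997), which encodes a tryptophan-degrading enzyme, the antigen-trimming peptidase gene ERAP1 (0.996) and the immunoproteasome gene PSMB9 (0.996). APOL4 was most like GBP1 (0.990), HRASLS2 (0.984) and TRIM21 (0.979). These genes were picked by their correlation with APOL4 over the same libraries, so a like pattern of the groups follows from that choice. In untreated HT1376 FOXP3 KO against HT1376 CT, GBP1 was at 45.4 ± 6.15 against 5.89 ± 1.42 CPM (SD, n = 3). HRASLS2 was at 1.36 ± 0.139 against 0.601 ± 0.133 CPM there, and TRIM21 at 28.1 ± 1.76 against 17.6 ± 1.80 CPM. With IFNγ, GBP1 was at 744 ± 41.2 against 822 ± 67.2 CPM. HRASLS2 was then at 3.76 ± 0.938 against 3.41 ± 0.175 CPM, and TRIM21 at 71.1 ± 8.38 against 73.9 ± 7.39 CPM. Within the family r was highest between APOL3 and APOL6 (0.992) and lowest between APOL2 and APOL4 (0.852).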

How the data were processed

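RNA-seq of 12 HT1376 libraries was used, with groups taken from the sample labels. The authors prepared ribosome-depleted total RNA, sequenced 150 bp paired-end reads, aligned them to GRCh38 with STAR 2.7.11a (version from the submitters' processing notes), removed Mycoplasma sequences with Kraken, and deposited unnormalized htseq-count counts per gene. The strand setting and the handling of reads matching several genes are not given in the sources used here. All 12 sample columns were used, with 0 left over, and 0 rows named no gene.

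Each comparison was fitted with edgeR 4.0.16 (glmQLFit and glmQLFTest, R 4.3.3) on genes with at least 10 counts in the libraries compared, with TMM normalization and Benjamini-Hochberg adjusted p under 0.05 over all genes tested. The interaction used all 12 libraries. Fold changes are fitted, CPM use TMM factors over the 12 libraries, and exact binomial intervals cover counting error only. Totals of 4490684 to 39270042 counts set the precision. Scripts were tested on simulated data. There, false calls made up 6.81% to 11.6% of all calls in the main fits, with 8.61% in the interaction. Their share was 10.3% to 23.4% with the replicate block and 16.4% to 21.9% with DESeq2. It was 2.98% to 8.57% with the block plus bias-adjusted deviance. In the main fits the share of false calls was thus above the threshold of 0.05, so calls near that threshold are less certain than their adjusted p. Positions and lengths come from GENCODE 44, which holds 60437 of the 60666 gene IDs; STING1 was matched by its ID. DESeq2 1.42.0, other normalization, filters and deviance, a replicate block, a fold threshold and leaving out libraries were alternatives.

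Replicate numbers occur in each group, with no source saying what they mark. Deviations from group means correlated at 0.321 to 0.564 within a line and 0.126 to 0.338 between lines for the same number, and at -0.441 to 0.161 for different numbers, so the numbers were taken to pair the libraries. Between lines the ranges for same and different numbers overlapped. The main fits had no term for the replicate number. The block was an alternative, and it called more members in the interaction.

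The members and gene lists were chosen with earlier results of these data known. Named genes are the members, genes of the lists, protein-coding neighbours within 500 kb and, for each member with a mean of at least 1 CPM, the 3 outside genes with the highest correlation. Single values of a few genes that this rule names are not reported here.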

Additional observations from a re-analysis of the deposited data

Results flagged for a closer look

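The IFNγ response of APOL1 differed between the lines by a test of the difference itself. It was smaller in HT1376 FOXP3 KO, with a log2 difference of -1.19 (edgeR interaction, adjusted p = 0.0171). The response was positive in 3 of 3 replicate numbers in each line and smaller in HT1376 FOXP3 KO in each number. The adjusted p ranged from 9.34e-08 to 0.04 over the 9 alternatives that kept the libraries, its size being under the fold threshold of 2, and from 0.0202 to 0.11 with 1 library left out.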

How the results depend on the processing

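The 5 members called with IFNγ in HT1376 CT and the 4 called between the lines under IFNγ remained called with each library left out. With an absolute log2 fold change over 2 required as well, 3 members were called with IFNγ in HT1376 FOXP3 KO, 1 between the untreated lines, 0 under IFNγ and 0 in the interaction (edgeR; without that threshold 4 and 1). Between the untreated lines, filterByExpr left 1 call (APOL4 was not tested), as did leaving out the libraries numbered 12, an alternative chosen after seeing the data, and leaving out 1 library gave 0 to 2 calls. For the interaction, 4 members were called without the low-count filter, 4 with the replicate block, 2 with the block plus bias-adjusted deviance, 4 with the block within each line (APOL1, APOL2, APOL3 and APOL6), and 0 to 1 with 1 library left out. The block changed no call of a member in the other comparisons. The edgeR counts given for the neighbours and the gene lists come from the fits without the block. Uncalled differences turned sign for APOL3 between the untreated lines (0.04 without replicate 12; -0.51 to -0.08 with 1 library left out), APOL2 there (0.01 without HT1376 CT 12, -0.28 to 0.01 with 1 library left out), and APOL4 under IFNγ (-0.05 without replicate 12, -0.02 without HT1376 FOXP3 KO with IFNγ 12, -0.02 to 0.67 with 1 library left out). The cause was not tested.

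Over all genes, calls with IFNγ in HT1376 CT went from 1307 to 2248 without the filter, 4530 with the block, 4099 with the block plus bias-adjusted deviance, 356 with the fold threshold and as few as 761 with 1 library left out. In HT1376 FOXP3 KO they went from 237 to 1334, 1027 and 125 with the block, both changes and the fold threshold. The fold threshold left 3119 of 8135 calls between the untreated lines and 2948 of 7046 under IFNγ. Interaction calls went from 31 to 294 without the filter, 160 with DESeq2, 336 with the block, 230 with both, 867 with the block within each line, 49 without replicate 12 and 18 with the fold threshold. Other scaling moved mean levels by -6.75% to 5.94%. APOL4 untreated and APOL5 are limited by depth.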
